A study of Homo sapiens with 3 samples.

Results

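The steady-state RNA of H9 cells was described here from the total RNA array alone, 1 of the 3 samples of the study. H9 is an established line of human embryonic stem cells, which can renew themselves and give rise to the cell types of the body. The cells were held under conditions that maintain pluripotency, and no other treatment or genotype is named in the labels. Total RNA was purified on a column and hybridised to a gene array, and the other 2 samples are RNA of polysome fractions of the same line, which were not used here. Genes were taken from the probe sets that list exactly 1 gene symbol, the highest probe set was kept where a gene had several, and the resulting 18417 genes were ranked by their log2 level on this array. Culture medium, feeder cells, passage and the number of cultures are not given in the sources used here.

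Each level is a log2 value from 1 array, so no level has an error between cultures and no difference between genes was tested. A probe set's signal depends on how well its probes bind as well as on the RNA, so a rank orders signal and not the number of RNA molecules. The level also belongs to a bulk culture, in which a low value from all cells and a higher value from fewer cells cannot be told apart.

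Pluripotent stem cells are held in their state by a small set of transcription factors, among them OCT4, SOX2 and NANOG, that act on each other's genes. Human embryonic stem cells in standard culture are usually placed close to the epiblast that is about to gastrulate, called the primed state, and depend on FGF and on activin or Nodal signals. They divide fast, with a short gap before DNA replication, and rely strongly on glycolysis.

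Whether a majority of the measured genes counted as detected depended on the background line. Of the 18417 genes, 11705 (63.6%) lay above a background line of 3.76, the 95th percentile on the same array of 460 genes restricted to other tissues (those of olfactory receptors, taste receptors, defensins and hair proteins associated with keratin). A stricter line, the 99th percentile of these genes, lay at 5.03 and was passed by 8542 genes (46.4%), which left 3163 genes between both lines. The median gene level was 4.72, with quartiles at 3.35 and 6.87, and the range ran from 2.44 to 13.16. The fullest interval of 0.5 units ran from 3 to 3.5 and held 4233 genes. By the choice of the line 23 of the 460 background genes lay above it. They were unevenly spread over their families: 7 of 341 olfactory receptor genes lay above it, the highest at 4.04, against 14 of 67 keratin-associated protein genes, the highest of which, KRTAP5-3, read 7.84.

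**Figure D1:**
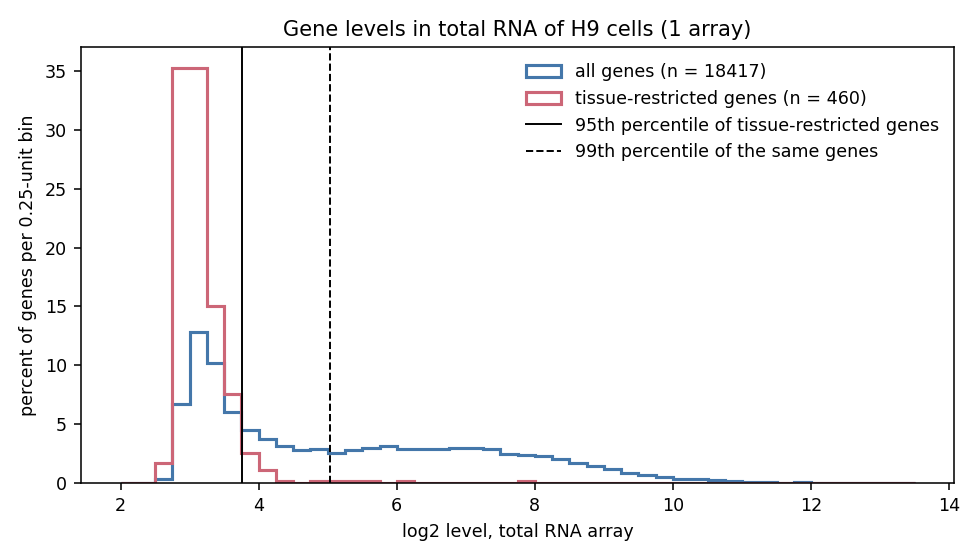
Share of genes in each interval of 0.25 log2 units of the total RNA array, for all 18417 genes and for the 460 tissue-restricted genes. The solid line marks 3.76 and the dashed line 5.03; the tissue-restricted genes pile up around their median of 3.08, while all genes form a low peak there and a long shoulder up to 13.16.

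Signal was spread unevenly over genes. Sums and ranks took in only the probe sets that list exactly 1 gene, which made up 12 of the highest 100 probe sets. On the linear scale the highest 10 genes held 2.75% of the summed signal of all genes, the highest 100 held 13.9% and the highest 1000 held 46.6%, and 1174 genes held 50%. The level was 10.96 at rank 100, 9.58 at rank 500 and 8.93 at rank 1000. Probe sets of 1 gene did not always give the same level. For 769 genes several probe sets were present, and the median gap between the highest and the lowest was 0.46, but 101 genes had a gap over 3 and 134 had probe sets on both sides of the background line. NPM1, which encodes a nucleolar chaperone, read 12.07 on its highest probe set and 3.94 on its lowest, and RPL5 read 12.88 and 6.87.

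The 4 genes given as markers of pluripotent stem cells were all strongly detected. LIN28A, an RNA-binding protein that blocks maturation of let-7 microRNAs, read 11.10 (rank 81), with 9.51 on its other probe set. PODXL, the sialomucin that carries stem cell surface epitopes, read 9.92 (rank 351). SOX2, a core pluripotency factor, read 9.50 (rank 552), and DNMT3B, a de novo DNA methyltransferase abundant in early embryo cells, read 9.04 (rank 899). These 4 genes went with the label of embryonic stem cells. On the wider lists below, 24 of 26 pluripotency regulators and 23 of 27 surface and secreted markers passed the background line. FOXD3, GDF3, LEFTY1 and NODAL were among those that did not, and POU5F1 and NANOG were not analysed here.

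**Figure D2:**
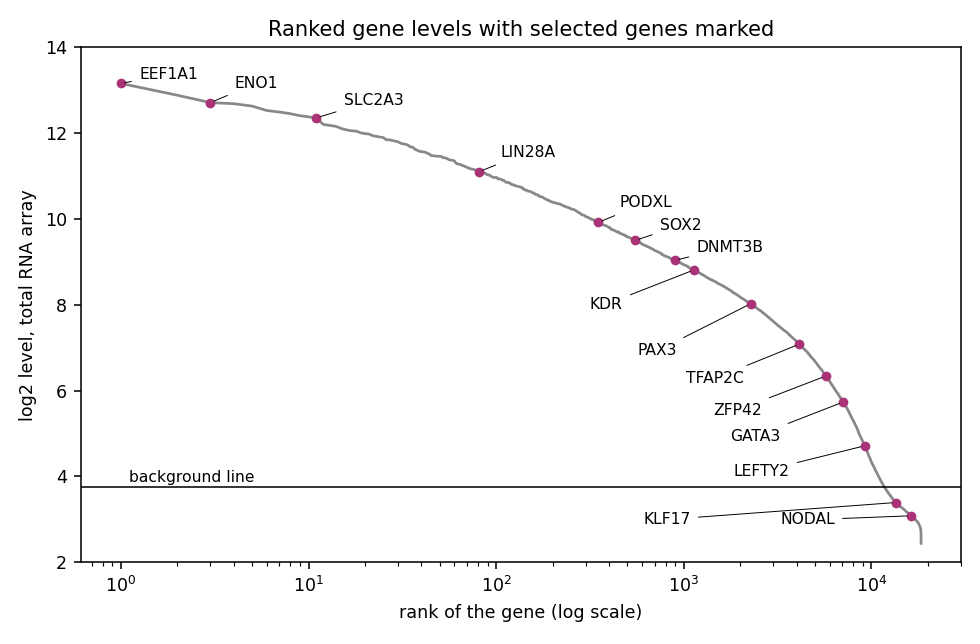
Log2 level on the total RNA array against the rank of the gene on a log scale, over all 18417 genes, with selected genes marked by points. LIN28A, PODXL, SOX2 and DNMT3B lie between ranks 81 and 899, whereas KLF17 (3.39) and NODAL (3.08) lie under the background line of 3.76.

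Genes of protein synthesis, energy metabolism, protein folding and the cytoskeleton led the ranking. The highest was EEF1A1, which brings aminoacyl-tRNA to the ribosome, at 13.16. It was followed by RPL5 (12.88), the glycolytic enzyme gene ENO1 (12.71), the chaperone gene HSPA8 (12.69), RPS3 (12.63), GAPDH (12.53) and EEF1G (12.49). ACTB (12.45), RPS4X (12.41), RPL4 (12.38) and SLC2A3 (12.36), the last a glucose transporter, came next. The rest of the highest 25 protein-coding genes lay between 12.20 and 11.90 and comprised ATP5F1B, HSP90AB1, TUBB, ACTG1, NPM1, RPS6, YWHAE, UBB, LDHB, RPS3A, PDIA6, RPS27, PTMA and HSP90AA1. Several of these, the ribosomal protein, actin, tubulin and ubiquitin genes among them, have near-identical gene copies or processed pseudogenes, so part of their signal may be shared with those copies.

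Promoters of 5 genes are shown because they stand for the kinds found among the high genes: the highest gene with a CpG-rich promoter, the highest without, the highest ribosomal protein gene with an entry, the histone gene H1-5 and the stem cell factor SOX2. The sequences are those of RefSeq on GRCh38.p14, from 120 bases before to 20 bases after the annotated start, 5′ to 3′ on the gene's strand. Capitals mark the TATA motif TATAAA, the CCAAT box and the GC box, spelled GGGCGG, each on either strand, and a run of at least 7 pyrimidines that overlaps the bases from -5 to 10 around the start. Windows for RPL5, LIN28A, PODXL, H4C3 and H3C11 are not shown.
EEF1A1, chr6:73521013-73521152, minus strand: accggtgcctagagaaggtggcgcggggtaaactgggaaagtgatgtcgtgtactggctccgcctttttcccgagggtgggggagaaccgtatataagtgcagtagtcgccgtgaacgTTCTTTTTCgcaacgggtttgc
RPL4, chr15:66504836-66504975, minus strand: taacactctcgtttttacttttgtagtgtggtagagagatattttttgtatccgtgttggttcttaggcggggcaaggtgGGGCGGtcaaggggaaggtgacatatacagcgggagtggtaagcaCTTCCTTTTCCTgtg
RPS3, chr11:75399398-75399537, plus strand: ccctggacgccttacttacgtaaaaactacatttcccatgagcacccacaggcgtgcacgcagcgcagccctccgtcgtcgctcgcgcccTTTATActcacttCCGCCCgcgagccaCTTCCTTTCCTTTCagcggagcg
H1-5, chr6:27867569-27867708, minus strand: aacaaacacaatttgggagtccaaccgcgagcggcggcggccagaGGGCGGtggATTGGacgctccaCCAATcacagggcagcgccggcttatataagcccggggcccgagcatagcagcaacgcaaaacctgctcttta
SOX2, chr3:181711805-181711944, plus strand: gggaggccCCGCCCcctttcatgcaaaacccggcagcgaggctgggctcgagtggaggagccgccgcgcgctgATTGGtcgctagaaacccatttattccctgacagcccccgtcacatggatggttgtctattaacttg

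A pyrimidine run overlapped the annotated start of EEF1A1 and RPS3 and lay just after that of RPL4. Messages of translation machinery genes are known for a run of pyrimidines at their very 5′ end, and the search here, which also takes runs beside the annotated start, does not show that the message begins with one. Over the cytosolic ribosomal protein genes with a promoter window, 41 of 50 (82.0%, exact 95% interval 68.6 to 91.4) had such a run. Of all 27303 windows 17.5% had one, and of the 13769 windows of measured protein-coding genes 17.2%. Among the highest 500 genes with a window the share was 29.6%, and it was 24.7% without the ribosomal protein genes. The intervals here and below are Clopper-Pearson intervals and cover counting error only.

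Genes above background mostly had CpG-rich promoters. Windows of 300 bases, from 250 before to 50 after the start, were matched for 13769 of 16901 protein-coding genes (81.5%), and a window was called CpG-rich at a GC content of at least 50% and an observed over expected CpG ratio of at least 0.6. Of genes above the line 81.5% had a CpG-rich window (interval 80.7 to 82.3, n = 9362), against 33.7% of genes not above it (32.3 to 35.1, n = 4407) and 1.09% of the 367 background genes with a window. With the genes divided by level into 10 equal bins, the share was 19.9% in bin 1, the lowest, and 64.1% in bin 4, and from bin 6 on it lay between 81.6% and 87.7%. Read the other way, 83.7% of genes with a CpG-rich window lay above the line and 37.2% of the other genes did, which left 1485 CpG-rich windows on genes not above it. RPL4, LDHB, PDIA6 and RPS27 were among the 25 highest genes without a CpG-rich window. The RPL4 window failed on GC content alone (46.3%, CpG ratio 0.90).

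Other short sequences followed the level or the gene group. TATAAA on the sense strand between bases -40 and -16 was found in 3.44% of the 13769 windows of measured protein-coding genes. It was found in 6.83% of those not above the line and in 1.85% of those above it. The ETS-type sequence CGGAAGT, searched on both strands as all that follow, stood in 10.2% of the 13769 windows. It stood in 2.95% of genes not above the line and in 13.6% of genes above it. It was found in 18 of 50 ribosomal protein windows, 12 of 32 proteasome windows and 102 of 393 windows of zinc finger genes named ZNF. The NRF1-type sequence GCATGCG stood in 5.15% of the 13769 windows and in 9 of 42 windows of oxidative phosphorylation genes. CCAAT stood in 36.4% of the 13769 windows, in 42 of 47 windows of replication-dependent histone genes and in 23 of 31 windows of mitotic genes. The H1-5 promoter above has 2 such CCAAT boxes, 1 on each strand. A match of letters is a description and does not show that a factor binds there.

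**Figure D3:**
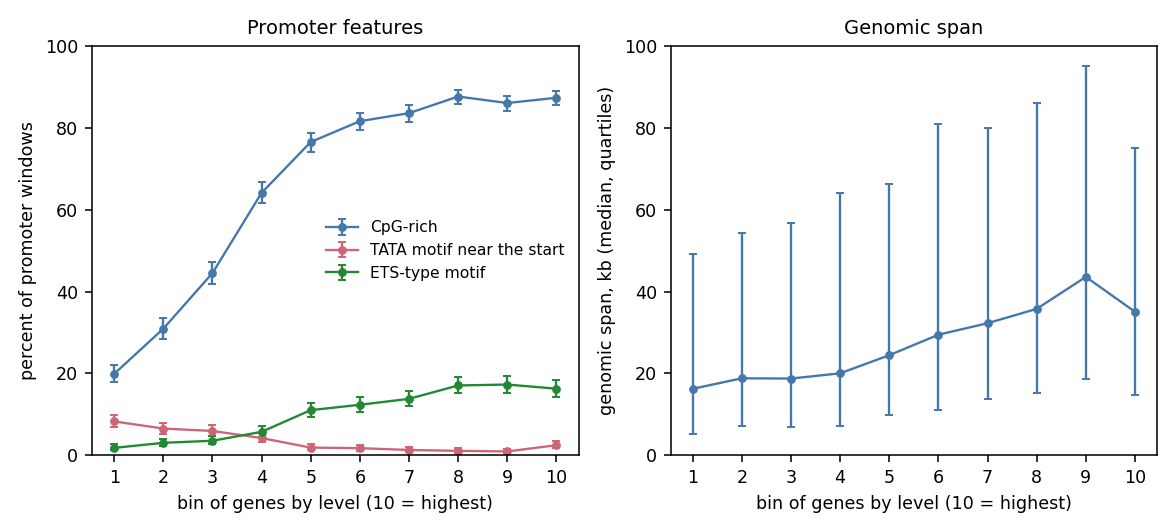
Left, percent of promoter windows that are CpG-rich, that hold a TATA motif near the start, or that hold the ETS-type motif, by 10 equal bins of the level of the 13769 genes with a window, with exact 95% binomial intervals; right, median genomic span in kb with quartiles, by 10 equal bins made separately over 16888 genes with a RefSeq place, so that the bin edges differ between both panels. The CpG-rich share goes from 19.9% in bin 1 to 87.4% in bin 10, and the median span from 16.2 kb to a peak of 43.6 kb in bin 9.

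Genes of the pluripotent state were nearly all detected. Of 26 measured pluripotency regulators 24 (92.3%) lay above the background line, against 63.6% of all genes, and their median was 7.26 against 4.72 over all genes. After LIN28A the highest were TERF1, a telomere-binding protein (9.82), and DPPA4, a chromatin-associated protein of early embryos (9.74). SALL4 (9.06), TRIM71 (8.78), LIN28B (8.56) and OTX2 (8.22) were also high, MYCN read 6.69, and ZFP42, the classical Rex1 marker, read 6.34. PRDM14 (5.93) and MYC (5.22) lay lower, and DPPA2 (3.92) and UTF1 (3.84) lay just over the line. FOXD3 (3.27) and NR5A2 (3.21) did not pass it. POU5F1, NANOG and ESRG were not analysed here.

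Of 27 stem cell surface and secreted markers 23 (85.2%) were above the line, against 63.6% of all genes, with a median of 8.33. Of these markers 7 were among the highest 500 genes, a group that takes in 2.71% of all genes. The gap junction gene GJA1 (10.47), CD24 (10.22) and the tight junction gene CLDN6 (10.14) led them. EPCAM, an epithelial adhesion molecule, read 9.60 and CRIPTO, the Nodal co-receptor also called TDGF1, read 8.47. The 4 that did not pass were GDF3 (3.48), TNFRSF8 (3.47), LEFTY1 (3.25) and NODAL (3.08), while LEFTY2, a Nodal inhibitor like LEFTY1, read 4.71.

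Markers of the primed state were detected and most naive markers were not, where 63.6% of all genes lay above the line. Of 23 primed markers 22 were above the line (median 8.16), led by the N-cadherin gene CDH2 (10.35), CD24 and the vimentin gene VIM (10.18), and only HMX2 (3.01) was not. DUSP6, a feedback phosphatase of the ERK pathway, read 8.16, SOX11 7.85 and ZIC2 7.69. Of 24 naive markers 8 were above the line (median 3.51), the highest of them IL6ST (6.26), a receptor subunit for LIF, PRDM14 and CBFA2T2 (5.24). KLF4 (3.65), TFCP2L1 (3.54), KLF17 (3.39), DPPA3 (3.27), DNMT3L (3.18), ESRRB (3.11) and DPPA5 (3.01) lay under it. None of 13 cleavage stage genes passed the line, the highest being RFPL3 (3.58), RFPL2 (3.47) and SLC34A2 (3.43), and ZSCAN4 read 3.42.

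Lineage marker lists, apart from that of fibroblasts described below, passed the line in smaller shares than all genes and had lower medians. The counts below stand against 63.6% of all genes above the line, 46.4% above the strict line and a median of 4.72. Of 22 neural ectoderm markers 12 (54.5%) were above the line and 6 above the strict line (median 3.88). SYT1 and MAP2 both read 6.98, NES, the intermediate filament gene of neural progenitors, read 6.83, PAX6 read 5.27 and SOX1 3.88. Of 25 primitive streak and mesoderm markers 12 (48.0%) passed the line but 3 the strict line (median 3.74). Those 3 were KDR, a VEGF receptor (8.81), PAX3 (8.02) and PDGFRA (5.60), whereas the streak genes EOMES (4.14), MIXL1 (4.10) and TBXT (3.39) were low. Of 23 endoderm markers 12 (52.2%) passed the line and 2, CXCR4 (5.75) and GATA6 (5.30), passed the strict line. SOX17 (3.77) sat at the line, and AFP (3.68) and ALB (3.13) below it.

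Of 25 trophoblast and amnion markers 13 (52.0%) passed the line (median 3.87), led by KRT18 (11.20), a keratin of simple epithelia in general, TFAP2C (7.08) and BMP4 (6.81). TFAP2A read 6.16, GATA3 5.73 and VTCN1 5.20, and CDX2 (3.72) and CGA (3.30) were not above it. Of 24 germ cell markers 7 passed, among them KIT (6.46), the receptor for stem cell factor, DMC1 (5.96), a meiotic recombinase, PRDM1 (5.78) and DAZL (5.49), while DDX4 read 3.30. Of 22 blood markers 3 passed, TEK (6.73), CD2 (4.08) and HBZ (3.81), and the pan-leukocyte gene PTPRC read 2.96. Of 24 markers of mature neurons, muscle, liver and epidermis 5 passed, ACTA1 (7.32), TNNT3 (4.84), GAD1 (4.29), CYP2E1 (3.85) and SYN1 (3.83).

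Fibroblast markers were the only lineage list with a larger share above the line than all genes. Of the 20 measured genes of this list 16 (80.0%, against 63.6% of all genes) lay above the line (median 5.25). Above the strict line lay 10 of the 20, a share close to the 46.4% of all genes. In the highest 500, which take in 2.71% of all genes, were 2 of them. The collagen genes COL1A2 (10.11) and COL1A1 (9.86) and the actin-binding protein gene TAGLN (8.95) were high, and ACTA2 read 8.10 and FBN1 7.24. DCN (3.74), DPT (3.08) and FAP (2.99), also markers of fibroblasts, were not above the line, and MFAP5 was at it (3.76). The part that other cells in the culture had in these levels was not tested.

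**Figure D4:**
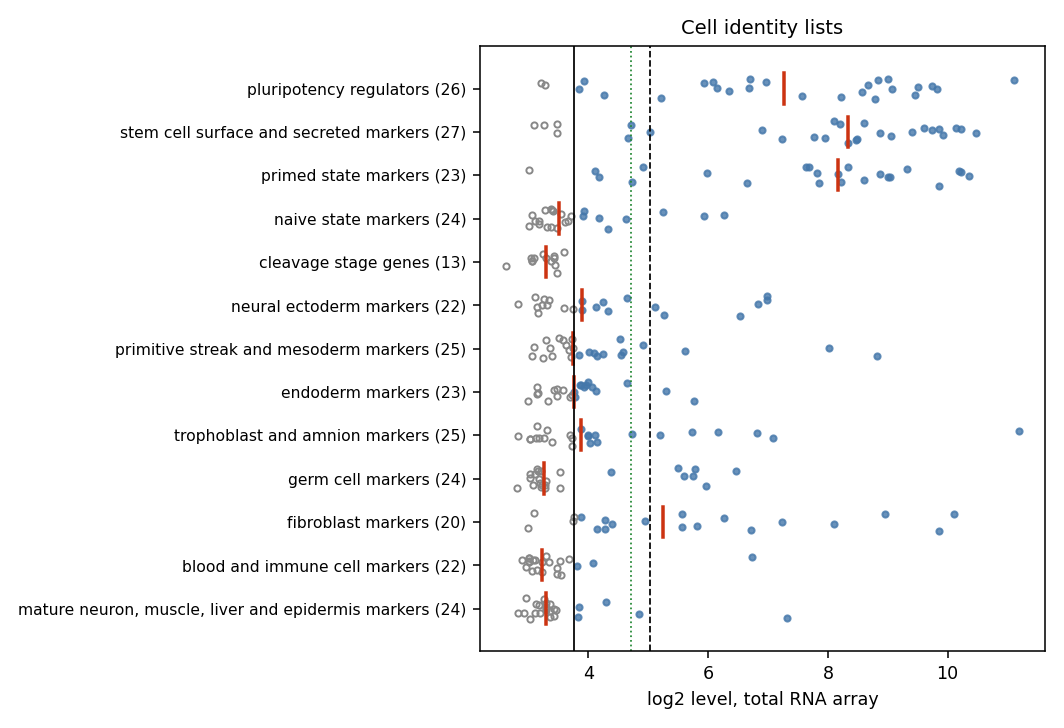
Log2 level on the total RNA array of each measured member of 13 cell identity lists, with the number of members in brackets; filled points lie above the background line of 3.76 (solid) and open points do not. Red bars mark list medians, the dashed line 5.03 and the dotted line the median of all genes, 4.72; the pluripotency, surface and primed lists have medians of 7.26, 8.33 and 8.16, and the fibroblast list is the only other one with a median over 4.72.

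Among FGF, TGF beta family and WNT genes, receptors and intracellular members passed the line in larger shares than ligands, where 63.6% of all genes passed. Of 22 FGF ligand genes 8 were above the line (median 3.60), led by FGF13 (8.25), which encodes a form that stays inside the cell, FGF2 (7.23), the ligand that supports these cells in culture, and FGF12 (5.62). FGF8 (3.53) and FGF4 (3.38) did not pass. Of 21 FGF receptors and feedback genes 17 passed (median 6.50). FGFR1 read 8.31 and FGFR2 8.26, FGFR3 5.61 and FGFR4 4.68. The feedback inhibitors DUSP6 (8.16), SPRED1 (7.98) and SPRY2 (7.73) were all above the median of their list, and DUSP4 (3.69), SPRED3 (3.41), SPRY3 (3.22) and the co-receptor gene KLB (3.13) did not pass.

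In the TGF beta family, 16 of 31 ligands and antagonists were above the line (median 3.83) against 23 of 27 receptors, SMADs and direct targets (median 6.61). The highest of the first group were FSTL1 (10.52), a follistatin-like secreted protein, FST (9.84), which binds activin, and the co-receptor CRIPTO. GREM1 (7.48) and NOG (6.74), which bind BMPs, were found beside BMP5 (7.39), BMP4 (6.81) and BMP2 (6.05). INHBA, which encodes the activin A subunit, read 3.06, NODAL 3.08 and the Nodal antagonist CER1 3.42, all under the line. The type I receptor TGFBR1 (9.62), the common mediator SMAD4 (9.34) and the activin and Nodal mediator SMAD2 (9.04) led the second group. The activin receptor genes ACVR2B (8.68), ACVR2A (7.66) and ACVR1B (6.05) were detected. ACVR1C (3.65), BMPR1B (3.57), ACVRL1 (3.19) and FOXH1 (3.18), the last a SMAD2 partner, were not.

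WNT ligands were low as well. Of 19 measured, 9 passed the line and 1, WNT1 (5.85), passed the strict line, ahead of WNT3 (4.88) and WNT5A (4.83). Of 44 receptors, inhibitors and effectors 38 passed (median 6.33). CTNNB1, which encodes beta-catenin, read 11.60, WLS, needed for WNT secretion, 11.27, and the receptor FZD7 9.86. The repressor TCF7L1 (7.81), its relative LEF1 (7.54) and the secreted inhibitor SFRP1 (8.54) were detected, and LGR5 (3.59), WIF1 (3.46), DKK4 (3.28), SFRP4 (3.27), LGR6 (2.91) and APC2 (2.88) were not.

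Of 23 insulin and IGF pathway genes 20 passed the line (87.0%, median 6.80), against 63.6% of all genes. IGFBP2 (9.59), a secreted IGF-binding protein, the receptor IGF1R (8.95) and IGF2R (8.56), which clears IGF2, led, INSR read 6.67, and IGFBP1 (3.36), IGF1 (3.24) and INSRR (3.09) did not pass. Of 28 Notch and Hedgehog genes 15 passed (median 4.50), with the Notch ligand JAG1 (8.97), the Hedgehog effector GLI3 (8.88) and NOTCH2 (8.61) highest. The Hedgehog receptor parts SMO (7.32) and PTCH1 (7.21) were detected, but the ligand SHH (3.10) and the target GLI1 (3.26) were not. Of 30 ERBB, ephrin, KIT and related receptor kinase and ligand genes 24 passed (median 5.32), led by EPHA4 (9.31), EPHA7 (9.06) and EFNB2 (8.80). NTRK2 (3.55), TGFA (3.45), NTRK3 (3.43), ERBB4 (3.43), EPHA5 (3.08) and HGF (3.003) did not.

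**Figure D5:**
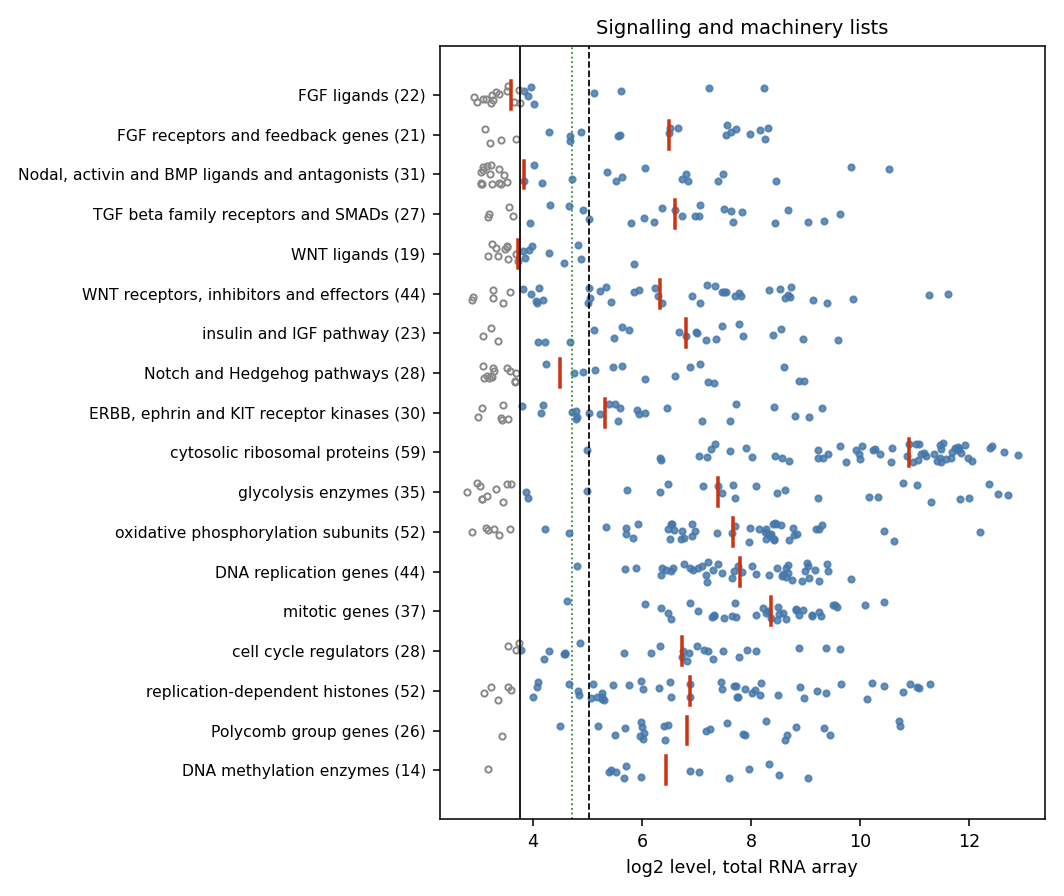
Log2 level on the total RNA array of each measured member of 18 signalling and machinery lists, with the number of members in brackets; filled points lie above the background line of 3.76 (solid), red bars are list medians, the dashed line is 5.03 and the dotted line the median of all genes, 4.72. Medians of the FGF, TGF beta family and WNT ligand lists are 3.60, 3.83 and 3.74, those of the matching receptor lists 6.50, 6.61 and 6.33, and the ribosomal protein list has the highest median, 10.90.

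Ribosomal protein genes made up the most prominent group at the top of the ranking. All 59 measured of 80 cytosolic ribosomal protein genes lay above the line, as 63.6% of all genes did, with a median of 10.90. In the highest 500, which take in 2.71% of all genes, were 42 of them (71.2%). With the mean of probe sets in place of the highest, 34 of the 59 were in that group. RPL32 (4.99), RPL23 (6.33) and RPL36 (6.35) were the lowest, and the other members had no probe set that lists them alone and were not analysed here. Of 13 translation elongation and termination factors 13 passed. EEF1A1, EEF1G and EEF2 (11.75) were highest, and EEF1A2 (4.93) and EIF5A2 (4.25), forms known from differentiated tissues, were lowest.

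Protein folding and degradation followed. Of 31 chaperone genes 26 passed the line (83.9%, median 9.99), against 63.6% of all genes. In the highest 500, which take in 2.71% of all genes, were 16 of them. HSPA8, HSP90AB1, HSP90AA1 and the chaperonin subunit TCP1 (11.85) led, and the stress-induced HSPA6 (3.61) and the small heat shock genes HSPB8 (3.33), HSPB7 (2.98), HSPB6 (2.96) and HSPB3 (2.87) were under the line. Of 37 proteasome genes 33 passed (median 8.80), led by PSMA4 (10.80), PSMB4 (10.49) and PSMA1 (10.33). The immunoproteasome subunits PSMB9 (3.43) and PSMB10 (3.64), the testis form PSMA8 (3.17) and the thymus form PSMB11 (2.82) did not pass, and the third immunoproteasome subunit, PSMB8, read 4.04.

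In energy metabolism the genes under the line were mostly forms known from other tissues. Of 35 glycolysis genes 25 passed the line (71.4%, median 7.39), near the 63.6% of all genes. In the highest 500, which take in 2.71% of all genes, were 10 of them, led by ENO1, GAPDH and SLC2A3. LDHA (11.83), PGK1 (11.31), PKM (11.04), TPI1 (10.79), SLC2A1 (10.32) and GPI (10.15) were also high, with HK2 at 8.63 and HK1 at 7.67. The liver and pancreas forms PKLR (3.32) and SLC2A2 (3.07), the muscle and fat transporter SLC2A4 (3.53), the testis forms PGK2 (3.04) and GAPDHS (3.07), and FBP1 (3.45) and FBP2 (2.80), which work in the opposite direction in gluconeogenesis, were not detected above the line. Of 52 oxidative phosphorylation subunits 46 passed (median 7.68) and 3 were in the highest 500, ATP5F1B (12.20), ATP5F1A (10.62) and UQCRC2 (10.43). The 6 under the line were COX6A2 (3.58), COX7B2 (3.38), COX6B2 (3.29), COX7A1 (3.18), COX4I2 (3.15) and COX8C (2.89), all tissue-restricted or oxygen-dependent forms of cytochrome c oxidase subunits. The widely expressed COX7A2 (8.40), COX6A1 (8.32) and COX4I1 (5.93) passed.

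Genes of proliferation were detected more often than the 63.6% of all genes. All 44 DNA replication genes passed the line (median 7.80), from RRM1 (9.84), a ribonucleotide reductase subunit, MCM7 (9.42) and TYMS (9.39) down to RPA3 (4.82). All 37 mitotic genes passed as well (median 8.38), with CCNB1 (10.43), TOP2A (10.09) and BUB3 (9.57) highest and AURKC (4.63), a germ cell kinase, lowest. Of 28 cell cycle regulators 25 passed (median 6.74), led by CCND2 (9.63), CDK4 (9.37) and the p53 antagonist MDM2 (8.88). CCND1 read 8.10, the p53 target CDKN1A 4.60, and the CDK inhibitors CDKN2A (3.75) and CDKN2B (3.70) and the p53 relative TP73 (3.55) did not pass. Of 14 telomerase and telomere genes 14 passed, including TERF1, DKC1 (8.01) and NOP10 (7.61), the telomerase RNA TERC (5.61) and the catalytic subunit TERT (4.17), which lay between both lines.

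Replication-dependent histone genes, which are transcribed in S phase and give RNA without a poly(A) tail, were well represented. Of 52 measured 47 passed the line (90.4%, median 6.88), against 63.6% of all genes. In the highest 500, which take in 2.71% of all genes, were 9 of them, led by H4C3 (11.29), H3C11 (11.07) and H1-5 (11.04). H4C16 (3.60), H2AC1 (3.54), H1-6 (3.37), H2BC11 (3.24) and H2BC1 (3.12) did not pass, and H1-6, H2AC1 and H2BC1 are known as testis forms. Coding sequences of these genes are nearly alike, so levels of single members are uncertain. Promoter windows were found for 47 of these genes, taken whether above the line or not. Of these, 27 had TATAAA on the sense strand between bases -40 and -16, against 3.69% of the highest 500 genes with a window. CpG-rich windows were 4 of the 47, against 86.2% of the highest 500. The histone windows had a median GC content of 42.7% and a median CpG ratio of 0.73, so the ratio alone was not low.

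Chromatin regulators were nearly all above the line, where 63.6% of all genes lay. Of 14 DNA methylation genes 13 passed (median 6.43), with DNMT3B, the demethylase TET1 (8.51) and the maintenance enzyme DNMT1 (8.32) highest, DNMT3A at 5.98, TET2 at 5.39 and only DNMT3L (3.18) under it. Of 26 Polycomb genes 25 passed (median 6.83). The histone-binding proteins RBBP7 (10.74) and RBBP4 (10.71) and the PRC2 partner JARID2 (9.45) led, SUZ12 read 8.67, the methyltransferases EZH2 8.63 and EZH1 5.98, and CBX7 (3.44) was under the line. Of 33 SWI/SNF and NuRD genes 30 passed (median 7.98), with SMARCC1 (10.43), CHD4 (10.33) and HDAC2 (10.31) highest. The ATPase genes SMARCA4 and SMARCA2 read 8.79 and 4.22, and CHD5 (3.29), DPF3 (3.18) and ACTL6B (3.08), forms known from neurons or muscle, did not pass.

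The shares of adhesion genes above the line lay on both sides of the 63.6% of all genes. Of 38 cadherin, claudin and gap junction genes 21 (55.3%) passed the line (median 4.04), with GJA1, CDH2 and CLDN6 highest and the E-cadherin gene CDH1 at 8.49. Of 38 integrin and basement membrane genes 26 (68.4%) passed (median 5.93). FN1 (10.38), which encodes fibronectin, and the integrin genes ITGB1 (10.13) and ITGAV (9.30) led, followed by LAMC1 (9.28) and LAMB1 (9.22). ITGA6 read 9.05, LAMA1 7.55 and LAMA5 5.87. Of 34 actin, tubulin and intermediate filament genes 30 passed (median 7.94), led by ACTB, TUBB and ACTG1. The lamin gene LMNB1 read 8.98 and LMNA, usually low in stem cells, 5.17, and TUBB1 (3.40), TUBA8 (3.36), GFAP (3.28) and KRT5 (3.19) did not pass.

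Immune genes were at a low level apart from a few. Of 32 antigen presentation and interferon response genes 16 passed the line, against 63.6% of all genes, and 5 passed the strict line (median 3.76). The 5 were the antiviral membrane proteins IFITM3 (8.53), IFITM1 (8.35) and IFITM2 (7.27), which share sequence and may share signal, and B2M (7.25) and TAPBP (6.92) of the MHC class I pathway. TAP1, the peptide transporter, read 4.65.

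Families of developmental transcription factors differed in how many members were detected. Together 97 of the 196 genes of 10 such families passed the line, in a joint count made after the values were seen, with a median of 3.74 against 4.72 over all genes. In the SOX family, 13 of 19 (68.4%) passed, near the 63.6% of all genes, and 7 the strict line, led by SOX2, SOX11 and SOX4 (6.90). SOX10 (3.65), SOX15 (3.63), SOX7 (3.57), SOX8 (3.49), SOX6 (3.32) and SOX30 (3.29) did not pass. Of 11 ZIC, GLIS and SALL genes 7 (63.6%) passed, the same share as over all genes, with SALL4 (9.06), SALL1 (9.04) and SALL2 (8.998) close together, and ZIC1 (3.60), GLIS3 (3.36), GLIS1 (3.32) and ZIC4 (3.09) under the line. Of 9 PAX genes 3 passed, PAX3 (8.02), PAX6 (5.27) and PAX7 (3.77). Of 17 T-box genes 4 passed, MGA (7.12), TBX2 (4.72), TBX15 (4.49) and EOMES (4.14). Of 12 measured POU genes 6 passed the line and 0 the strict line, the highest being POU3F2 (4.95), POU3F3 (4.38) and POU3F1 (4.25). POU5F1, which encodes OCT4, is not among these 12 and was not analysed here. Of 6 GATA genes 5 passed, led by GATA3, GATA6 and GATA5 (5.19), and GATA1 (3.53) did not.

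HOX genes, which set position along the body axis, were mostly not above the line. Of all genes 63.6% passed the line. Of 27 measured HOX genes 8 (29.6%) passed it and 2 the strict line, HOXB2 (5.54) and HOXA2 (5.40), with HOXB1 (4.79) next. The 8 were 6 of 10 HOXB genes, 1 of 9 HOXD genes, the 1 measured HOXA gene and 0 of 7 HOXC genes, a division by cluster made after the values were seen. The HOXB genes had a median of 3.88, just over the line, and 1 of them passed the strict line. Of 39 FOX genes 19 passed, led by FOXM1 (8.45), a driver of mitotic genes, FOXJ3 (8.26) and FOXN3 (7.72), and of 31 homeobox genes of the LHX, NKX, DLX and sine oculis families 13 passed, led by SIX4 (7.77), NKX6-3 (5.37) and SIX5 (5.23). Of 25 KLF and SP genes 19 passed, led by the general factors SP1 (8.84), SP4 (7.13) and SP3 (7.01), and SP6 (3.66), KLF4 (3.65), KLF8 (3.47), KLF17 (3.39), KLF14 (3.37) and KLF15 (3.06) did not.

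Promoters of developmental factors that were not detected were more often CpG-rich than those of other genes not detected. Among the members of these 10 families with a promoter window, 52 of 72 (72.2%, exact 95% interval 60.4 to 82.1) that were not above the line had a CpG-rich window, close to the 51 of 64 (79.7%) of those above it. Of the other genes not above the line 33.1% had one.

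Other large families ranged from mostly detected to mostly under the line, which 63.6% of all genes passed. Of 480 ZNF genes, most of them DNA-binding repressors, 388 passed the line (median 4.96), led by ZNF207 (9.31), ZNF462 (9.24) and ZNF257 (8.92). Of 29 clustered protocadherin genes 25 passed (median 4.83), led by PCDHGB4 (8.25), PCDHB2 (7.58) and PCDHA10 (7.38), though members of a cluster share exons or close sequence. The strict line, which 46.4% of all genes passed, was passed by 229 of the 480 ZNF genes and 12 of the 29 protocadherin genes. Neither family stood clearly above all genes there. Of 46 keratins 5 passed, KRT18 (11.20), KRT8 (11.17), KRT19 (8.61), KRT7 (4.73) and KRT14 (3.83), the first 3 being those of simple epithelia; KRT18 and KRT8 have many processed pseudogenes that may share their signal. Of 48 cytochrome P450 genes 11 passed, led by the sterol synthesis enzyme CYP51A1 (8.71), CYP2R1 (7.65) and CYP2S1 (6.79). Of 73 potassium channel genes 17 passed, led by KCNT2 (6.70), KCNK5 (6.38) and KCNK10 (5.17), and of 78 interleukin and chemokine genes and their receptors 11 passed, led by CXCL5 (5.84), IL4R (5.79) and CXCL12 (5.52). Of 29 MAGE, PRAME and GAGE cancer-testis genes 3 passed, MAGEA8 (4.16), SSX1 (4.10) and MAGEB17 (3.92).

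Classes of RNA differed in how many genes were detected. The RNA was purified on a column, and how fully small RNA was recovered beside longer RNA was not tested. Shares of different classes may therefore not be directly comparable. Above the line were 66.2% of 16901 protein-coding genes, 68.6% of 175 small nucleolar RNA genes, 41.0% of 393 transcribed pseudogenes, 20.4% of 632 long noncoding RNA genes and 18.5% of 173 microRNA genes. In the highest 500 genes 488 were protein coding. The highest genes of other classes were RPL13AP5 (11.72), a pseudogene of a ribosomal protein gene whose signal may come from the parent, the small nucleolar RNA SNORD116-15 (10.96), the spliceosomal RNA RNU5E-1 (10.81), the ubiquitin pseudogene UBBP4 (10.77) and RNU5D-1 (10.67). Then came RMRP (10.51), the RNA of an RNA-processing enzyme, SNORD116-14 (10.38), MALAT1 (10.31), a nuclear long noncoding RNA whose other probe set read 6.45, SNORD116-21 (10.17), LOC100130331 (9.93), RPL13AP20 (9.76) and PFN1P2 (9.62).

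SNORD116 and SNORD115 are neighbouring tandem arrays of small nucleolar RNA genes in the imprinted Prader-Willi region. Of 20 SNORD116 copies 19 passed the line and 13 the strict line (median 6.20, from 3.50 to 10.96). Of all 175 small nucleolar RNA genes 68.6% passed the line. Of 20 SNORD115 copies 9 passed the line and 0 the strict line (median 3.57, highest 4.52). Both groups were picked after their values were seen, and copies within an array share sequence.

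MicroRNA genes were near background, and their probe sets cover precursor genes, so a level does not measure the mature microRNA. Recovery of such short RNA on the column was not tested. Of 173 genes 32 passed the line and 5 the strict line (median 3.25), MIR302B (6.92), MIR326 (6.81), MIR302A (6.24), MIR190A (5.26) and MIR320A (5.13). RefSeq sequences were matched for 164 of them. The mature forms below are shown because their genes share a seed, bases 2 to 8 in capitals, with another gene above the line, and the seed determines which messages a microRNA binds.
miR-302b-3p: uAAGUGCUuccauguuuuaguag
miR-302a-3p: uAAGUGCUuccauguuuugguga
miR-92a-3p: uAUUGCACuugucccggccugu
miR-25-3p: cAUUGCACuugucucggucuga
miR-29a-3p: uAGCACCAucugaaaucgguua
let-7f-5p: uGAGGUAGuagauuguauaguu
let-7i-5p: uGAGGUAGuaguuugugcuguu

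The first pair belongs to the miR-302 family, the most characteristic microRNAs of human embryonic stem cells, and shares the seed AAGUGCU. The seed AUUGCAC was shared by MIR92A2 (5.003) and MIR25 (4.60). MIR29A and MIR29B1 shared AGCACCA, with the higher of both at 4.54. The let-7 seed GAGGUAG belongs to the family that LIN28A and LIN28B hold back at the precursor stage. Of 10 genes with it 4 passed the line, against 18.5% of all 173 microRNA genes. They were MIR98, MIRLET7D, MIRLET7F1 and MIRLET7I, and the 10 ranged from 2.90 to 4.16 (median 3.60).

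Neighbouring genes resembled each other weakly in level. Over 16865 adjacent pairs of measured protein-coding genes Spearman's rho was 0.17 and Pearson's r 0.15, a description across genes that share 1 array and in part gene families. The next gene was above the line in 71.6% of cases when the first was, and in 55.8% when it was not. Of 641 head-to-head pairs with starts within 1000 bases, 485 (75.7%) had both genes above the line and 23 had 0, and 86.0% of the genes in such pairs passed against 66.2% of all. The longest run of neighbours above the line had 36 genes, from SLC25A25 to NTMT1, and a run of 29, from NDUFA13 to ZNF257, consisted mostly of ZNF genes. The longest run under it had 39 genes, from OR4C46 to OR5M3, nearly all olfactory receptors. Olfactory receptors were 341 of the 460 background genes that set the line, so such a run follows from how the line was set. The background genes were also kept among the adjacent pairs, so the values for these pairs partly reflect their clusters.

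The span of a gene from start to end in RefSeq also varied with level. The median was 32.4 kb for protein-coding genes above the line and 17.8 kb for those not above it. With the 16888 protein-coding genes that have a RefSeq place divided anew into 10 equal bins of level, whose edges differ from those of the promoter bins, it went from 16.2 kb in bin 1 to 43.6 kb in bin 9 and was 35.1 kb in bin 10. The 59 ribosomal protein genes had a median of 5.01 kb, and the highest 500 had 25.3 kb with them and 30.5 kb without. Among genes above the line Spearman's rho of span and level was 0.10 (n = 11188).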

How the data were processed

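Total RNA of H9 cells was purified with the RNeasy Plus kit and labelled by the Affymetrix standard protocol, per the labels' protocols. The authors deposited 1 log2 expression value per probe set. Per the submitters' processing notes, the tools were Partek 6.5 and RMA, a method that corrects background, normalizes and summarises probes. No genome build is given in the sources used.

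Of 33297 probe sets 19460 list 1 gene symbol in GEO's platform annotation, 1754 list several and 12083 are not listed; gene IDs of 19429 matched RefSeq GRCh38.p14, with 0 symbols changed. Genes were named from single-symbol probe sets only. Members and gene lists (40 lists and 18 families) were chosen with earlier results of these data known. With 1 array no test was made; counts above background are to be read against the 63.6% of all genes above it, and the number of arrays limits the precision.

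Named were the 25 highest protein-coding genes, the 12 highest of other classes, the 4 markers and, per list, the 3 highest members and those on the less filled side of the line where 6 or fewer. Other genes were named for their known roles after their values were seen. In results by gene class, pseudogenes were kept. The calculation of the line was run on simulated data whose silent and background genes shared a distribution, so this does not test the choice of line. Python 3.11.15, pandas 2.3.3, numpy 2.4.6, scipy 1.17.1 and matplotlib 3.10.9 were used. Other lines, probe set rules and CpG rules were tried.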

Additional observations from a re-analysis of the deposited data

Results flagged for a closer look

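Probe sets with no gene in the annotation used here carried signal that the counts of genes leave out. Of the 12083 such probe sets 5616 lay above the background line, and they made up 81 of the highest 100 probe sets of the array, with the highest at 13.50. Probe sets that list 1 gene made up 12 of those 100. What these probe sets measure was not tested.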

How the results depend on the processing

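With the line at the 99th percentile of the background genes (5.03), 26 counts moved by more than 1.5 times and 32 did not. Of all genes 46.4% passed this line, and each count below is to be read against that share and its list size given above. The counts above this line were 3 naive, 6 neural, 3 streak and mesoderm, 2 endoderm, 6 trophoblast and amnion, 10 fibroblast, 1 blood and 1 mature tissue markers. They were 4 FGF and 1 WNT ligands, 5 antigen presentation genes, and 2 HOX, 7 SOX, 11 FOX, 3 GATA, 1 T-box, 0 POU, 3 LHX, NKX, DLX and sine oculis homeobox, and 4 ZIC, GLIS and SALL genes. They were also 229 ZNF, 0 MAGE, PRAME and GAGE, 12 protocadherin, 3 keratin, 5 cytochrome P450, 4 interleukin and chemokine and 3 potassium channel genes. With the line from olfactory receptors alone (3.58), 1 cleavage stage gene, 5 PAX genes and 17 interleukin and chemokine genes passed, and 55 other counts stayed within 1.5 times. With genes of 1 probe set only, 38 of 38 ribosomal protein genes and 10 of 25 antigen presentation genes passed. With the mean of probe sets LIN28A read 10.31. With a CpG ratio of at least 0.75, CpG-rich shares were 67.1% above and 23.8% not above the line. Protein length by level was not run. Genes between 3.76 and 5.03 are near the background signal, so their detection rests on the line chosen. No paired analysis was possible because each group has 1 array.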
